A study of Mus musculus with 4 samples.

Results

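Tmem176a and Tmem176b are 2 adjacent, related mouse genes, and their transcripts were followed in macrophages labelled as wild type (WT) and as knockout (KO) for Pparg, the gene of PPARγ, a nuclear receptor for lipid ligands. The array's annotation assigned 1 probe set with values to Tmem176a (96605_at, designed on sequence AI787183) and 1 to Tmem176b (97885_at, designed on AB031386), 2 of 10649 probe sets and 2 of 7577 named genes in all, and none to both genes. The genes were picked with the KO and WT arrays of this study in view, so their difference between genotypes is described here without a test. H2-Aa, a chain of the class II histocompatibility molecule, and Cd74, its invariant chain, each with 1 probe set, serve as reference genes of antigen presentation.

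All 4 samples were peritoneal macrophages of mice of a mixed 129/SV and C57BL/6 background, 2 labelled PPARg WT and 2 labelled PPARg KO. Recruitment was by 2.5 ml of 3% thioglycollate, an irritant that recruits monocytes to the peritoneum, with lavage 3 days later, and the adherent cells of both genotypes were then held for 24 h in 0.5% serum without a ligand or stimulus. The age and sex of the mice, the allele and any Cre driver behind the KO label, and the number of mice per sample are not stated in the labels. The description of replicate 2 of each genotype ends in dup, so the spread between replicates may be technical.

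Each array gave 1 signal per probe set, in linear intensity units, and array medians ran from 136.7 to 142. The 12 antisense control probe sets of the array, which read the strand that labelled RNA should not match, had medians from 103.8 to 116 and maxima from 143.7 to 156.7, and mark the range in which a signal cannot be told from background. The signal of Pparg was 61.1 and 73.1 in WT and 43.0 and 40.6 in KO, below the antisense median on all 4, and the part of the gene that was deleted is not described, so this probe set may check nothing. Most macrophage markers were bright in both genotypes. The summed signal over 10 genes ran from 21606 to 22216 in WT and from 20862 to 23810 in KO. Cd68, a lysosomal marker of macrophages, averaged 6384 and 6583.

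TMEM176A and TMEM176B are small proteins with several membrane spans that resemble the MS4A family, to which the B cell antigen CD20 belongs. They sit in endosomal membranes, are made by dendritic cells and macrophages, and take part in ion flux across those membranes. Tmem176b is known for holding dendritic cells in an immature state and for restraining the inflammasome, and both genes are also expressed by lymphocytes that use the nuclear receptor RORγt.

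The genes lie head to head on mouse chromosome 6, and the sequence between their start sites is shown because the same bases serve as the upstream region of both. In RefSeq (GRCm38.p6) the nearest start sites are 109 bases apart, and windows from 250 bases before to 50 bases after those sites share 208 of 300 bases. The windows below are written from 5′ to 3′ on the strand of each gene, chr6:48841233-48841532 on the plus strand for Tmem176a and chr6:48841325-48841624 on the minus strand for Tmem176b. Capitals mark GAGGAA and GGAAGT, forms of the core read by ETS factors such as the macrophage regulator PU.1, on either strand.
Tmem176a: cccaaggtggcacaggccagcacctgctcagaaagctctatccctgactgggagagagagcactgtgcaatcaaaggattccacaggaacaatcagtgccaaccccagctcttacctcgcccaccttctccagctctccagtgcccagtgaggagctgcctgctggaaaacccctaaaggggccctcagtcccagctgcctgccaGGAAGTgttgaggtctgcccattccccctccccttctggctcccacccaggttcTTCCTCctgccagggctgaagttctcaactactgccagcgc
Tmem176b: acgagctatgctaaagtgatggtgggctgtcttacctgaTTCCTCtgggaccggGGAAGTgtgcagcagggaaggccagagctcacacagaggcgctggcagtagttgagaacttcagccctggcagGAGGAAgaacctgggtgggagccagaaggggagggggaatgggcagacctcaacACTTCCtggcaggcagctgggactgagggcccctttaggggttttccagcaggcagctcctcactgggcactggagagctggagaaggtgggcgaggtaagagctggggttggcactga

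Both matches in the Tmem176a window lay in the shared stretch, a GGAAGT that starts at position -45 relative to the Tmem176a start site and a GAGGAA on the other strand at position 10. The Tmem176b window shown held these and 1 more match of each motif. Of the windows not shown, that of Tmem176a at chr6:48841406-48841705 held 2 matches of each motif. Those of Tmem176b at chr6:48841088-48841387 and chr6:48840939-48841238 held 0 of either. Such matches are common: GAGGAA was present in 28.3% and GGAAGT in 23.8% of 32851 RefSeq windows of this length. Also searched on both strands were the nuclear receptor hexamer AGGTCA (16.3% of windows) and ATTGG, the core of the Y box (37.4%). Neither occurred in any of the 5 start windows of the pair that were searched. The upstream end of the Tmem176b gene record, chr6:48845948, had no window among them. A missing string says only that those letters are not in the window.

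The start window of H2-Aa is shown for contrast, because the Y box is part of the promoter module that class II genes share. It lies at chr17:34287774-34288073 on the minus strand (GRCm38.p6), and the capitals mark its ATTGG, which begins at position -48.
H2-Aa: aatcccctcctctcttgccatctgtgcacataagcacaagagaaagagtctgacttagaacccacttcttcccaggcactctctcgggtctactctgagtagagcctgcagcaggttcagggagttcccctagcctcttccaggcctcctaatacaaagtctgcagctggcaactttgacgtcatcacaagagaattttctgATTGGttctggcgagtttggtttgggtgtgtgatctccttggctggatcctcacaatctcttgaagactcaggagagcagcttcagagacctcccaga
Neither form of the ETS core nor the nuclear receptor hexamer had a match in the H2-Aa window. Longer spaced motifs were also searched and are not reported here.

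Tmem176a gave a dim signal that was higher in KO. Its WT signals were 124.7 and 119.9 and its KO signals 162.2 and 184.4, with means of 122 ± 3.39 and 173 ± 15.7 (SD, n = 2). Both KO arrays lay above both WT arrays, as they did at 11.3% of tested probe sets, and the gap between genotypes exceeded the gap between replicates. On the log2(signal + 16) scale the difference, KO minus WT, was 0.45, a fold of 1.37, and the 4 possible KO and WT pairs of arrays gave 0.34 to 0.56. Adding 16 to a signal tempers dim values and makes such a fold smaller than the ratio of means. The WT signals were above the antisense median of their array and below its highest antisense control, while both KO signals were above the highest. Set against the mean log2 value of each WT array's highest antisense control instead of the WT signals, the KO signal was higher by 1.14-fold.

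Tmem176b gave a brighter signal, clear of every antisense control on all 4 arrays, and was higher in KO as well. Its WT signals were 422.7 and 451.0 and its KO signals 561.0 and 676.9, with means of 437 ± 20.01 and 619 ± 82.0 (SD, n = 2). Again the genotypes did not overlap, although the KO replicates differed from each other more than the WT replicates did. The log2 difference was 0.48, a fold of 1.40, and the pairs of arrays gave 0.31 to 0.66.

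**Figure D1:**
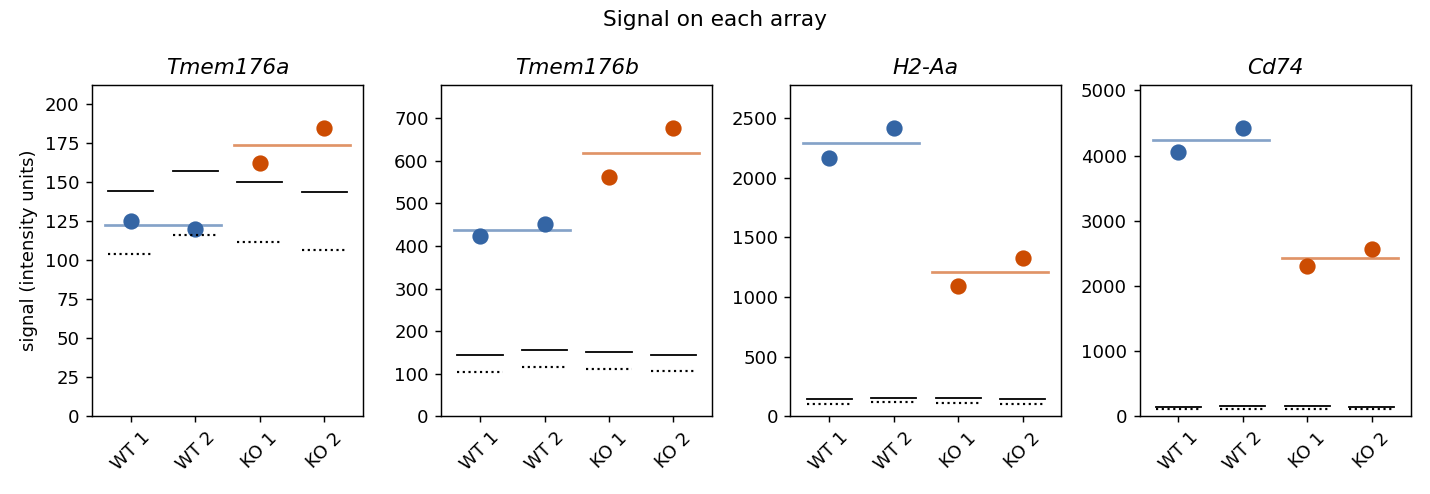
Signal in intensity units (vertical axes from 0) of Tmem176a, Tmem176b, H2-Aa and Cd74 on the 2 WT (blue) and 2 KO (orange) arrays. Points are arrays, coloured lines are genotype means, and the dotted and solid black bars are the median and the highest antisense control of each array. Tmem176a and Tmem176b were higher on both KO arrays, H2-Aa and Cd74 were lower, and the WT signals of Tmem176a lay between the antisense median and maximum.

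The differences of the paralogs were set side by side. The difference of Tmem176b exceeded that of Tmem176a by 0.03 on the log2 scale, less than the replicate SD of 0.08 for this quantity, and with each array left out in turn it ran from -0.04 to 0.10. With a pseudocount of 64 it was 0.095, past that SD. Because the WT signals of Tmem176a lay within the range of the antisense controls, equal changes cannot be read from these values. KO replicate 2 was the highest array for both genes. It exceeded KO replicate 1 by 0.17 for Tmem176a and by 0.26 for Tmem176b. Other probe sets shared part of the second gap: among the 501 probe sets nearest in brightness, the median gap of KO replicate 2 over KO replicate 1 was 0.18 at the level of Tmem176b and -0.02 at the level of Tmem176a. After each array was centred on those probe sets, an adjustment chosen after the data were seen, the genotype difference was 0.48 for Tmem176a and 0.50 for Tmem176b.

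In the fit over all 6389 probe sets above the signal filter (limma, Benjamini-Hochberg adjusted p under 0.05), 65 were called higher in KO, which is 1.02%, and 162 lower, and both Tmem176 probe sets were among those called higher. Because the genes were chosen on this contrast, nothing is read from calls of the pair in this or any other fit. Quantile normalization called 170 higher and 250 lower (40.5% higher against 28.6%). The split also moved with the KO arrays, to 127 higher and 124 lower without KO replicate 1 and to 42 higher and 285 lower without KO replicate 2. A larger log2 difference in the upward direction was seen for 44 probe sets in the case of Tmem176a and 41 in the case of Tmem176b. Whether the pair was called changed with the array left out. With each array left out in turn, the log2 differences ran from 0.37 to 0.54 for Tmem176a and from 0.35 to 0.61 for Tmem176b.

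**Figure D2:**
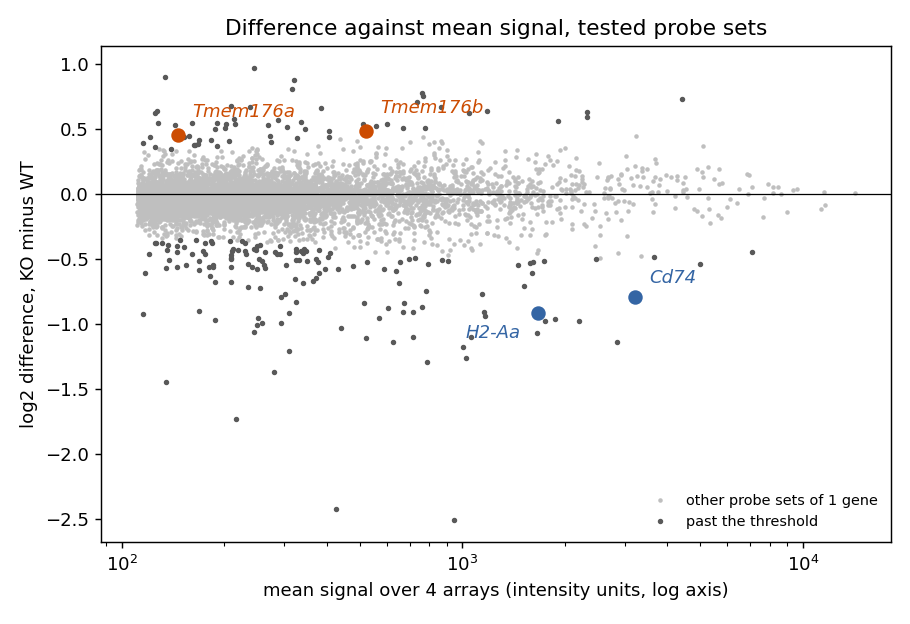
Log2 difference, KO minus WT (vertical axis), against the mean signal over 4 arrays (horizontal log axis, intensity units) for the tested probe sets that name 1 gene. Dark points passed the adjusted p threshold; Tmem176a (0.45) and Tmem176b (0.48) lie at the upper edge and H2-Aa (-0.92) and Cd74 (-0.80) well below 0.

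The reference genes of class II presentation went the other way. H2-Aa read 2165.5 and 2414.5 in WT and 1093.9 and 1325.6 in KO, a log2 difference of -0.92 (SE 0.16, limma adjusted p = 9.18e-07). Cd74 read 4050.3 and 4420.1 in WT and 2304.2 and 2565.8 in KO, a log2 difference of -0.80 (SE 0.15, limma adjusted p = 2.29e-05). The genotypes did not overlap for either gene (both KO arrays were the lower ones at 21.1% of tested probe sets), and all 4 KO signals were well above the antisense controls. Both missed the threshold without WT replicate 1 (limma adjusted p = 0.14 for H2-Aa and 0.38 for Cd74) and without WT replicate 2 (0.42 and 0.77), when the spread comes from the KO arrays alone, with log2 differences from -0.99 to -0.73.

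A list of 17 class II genes, of which 15 had values and 12 passed the filter, includes both reference genes. Of the 12 tested, 7 fell, 0 rose and 5 did not pass, where 2.66% of 5002 genes were called lower, and the median log2 difference was -0.65 against -0.02 over all genes. Without H2-Aa and Cd74, 5 of 10 fell and the median was -0.38. The fallen members with the smallest p, beside H2-Aa, were H2-DMa (-0.98), which helps load peptides, H2-Ab1 (-0.91) and H2-Eb1 (-0.91), which are class II chains. Ciita, the transactivator on which class II transcription depends, read 221.6 and 232.6 in WT and 152.3 and 148.4 in KO. The member nearest to the Tmem176 genes was Lgmn, a lysosomal protease, with means of 708 and 849, which did not pass (limma adjusted p = 0.74) but was called higher after quantile normalization (0.031). Leaving out WT replicate 1 gave 1 fallen member and a median of -0.72, and leaving out WT replicate 2 gave 0 and -0.58.

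Genes that induce or accompany class II expression under interferon gamma were mostly lower as well. Of 8 tested, 6 fell, 0 rose and 2 did not pass, where 2.66% of all genes were called lower, and the median was -0.97. The members with the smallest p were Iigp1 (log2 difference -2.51), Socs1 (-1.21), Gbp2 (-1.14) and Irf8 (-0.97). Without WT replicate 1 or WT replicate 2, Iigp1 was at -2.48 and -2.54, and Socs1 at -1.26 and -1.16. Irf8, a myeloid transcription factor, read 2304.8 and 2607.4 in WT and 1142.6 and 1344.7 in KO, and Irf1 averaged 2611 and 1341. Only 2 members fell in the fit lacking WT replicate 1 and 3 in that lacking WT replicate 2, and Irf8 (limma adjusted p = 0.079 and 0.31) and Irf1 (0.17 and 0.22) then missed the threshold.

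Processes that Tmem176b is known to restrain were covered by few genes. For the counts that follow, 2.66% of all genes were called lower. Of 6 dendritic cell maturation genes tested, 2 fell and 4 did not pass, with a median of -0.07. Those that fell were the costimulatory genes Cd86, from 296 to 195, and Cd40, from 144 to 101, while Cd80, another costimulatory gene, was below the filter at 62.4 and 61.7. The signal of Cd40 was below the highest antisense control on all 4 arrays, so its fold is not known. Leaving out either WT array ended the call of Cd86 (limma adjusted p = 0.078 and 0.14), and Cd40 missed it without WT replicate 2 (0.31) or KO replicate 1 (0.27). Of 3 inflammasome genes tested among 10 listed, Casp4, an inflammatory caspase, fell from 286 to 210, and Casp1 (611 and 496) and Nek7 (543 and 494) did not pass. Casp4 was not called in the fits lacking WT replicate 1 (limma adjusted p = 0.81), WT replicate 2 (0.55) and KO replicate 1 (0.11). Il1b, which the inflammasome processes, was below the filter, at 121 in WT and 74.7 in KO.

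No relative in the MS4A family was called higher, but few were measured. Of 15 listed, 6 had values and 2 passed the filter, of which 1 fell and 1 did not pass. Over all genes 2.66% were called lower and 1.06% higher. Ms4a6c, which is expressed by myeloid cells, read 311.2 and 278.1 in WT and 213.2 and 227.8 in KO, a log2 difference of -0.39 (SE 0.12, limma adjusted p = 0.031). It missed the threshold after median centring (0.092) and in the fits lacking WT replicate 1 (0.9997), WT replicate 2 (0.51) and KO replicate 1 (0.090). Ms4a1, which encodes CD20, read 130 and 145 and did not pass. The 4 members below the filter read below the antisense median on every array, so their folds are not known. Their log2 differences ran from -0.80 (Ms4a4d) to -0.03 (Ms4a2).

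**Figure D3:**
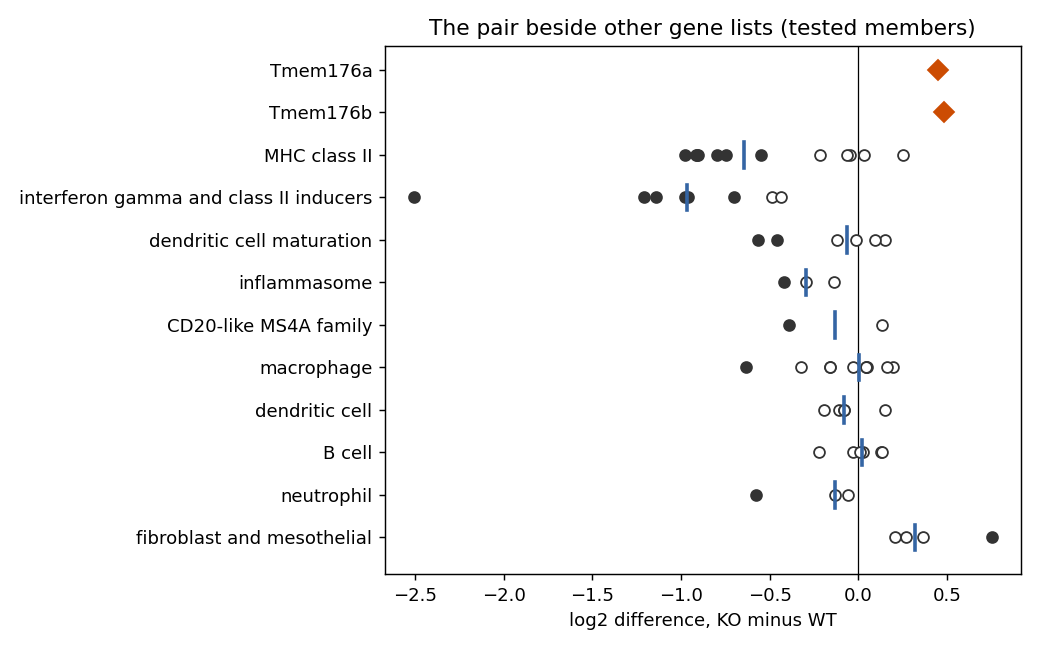
Log2 difference, KO minus WT (horizontal axis), of Tmem176a and Tmem176b (diamonds) and of the tested members of 10 gene lists (circles, 1 per gene, filled where past the adjusted p threshold; blue bars are list medians). The pair lies to the right of 0 at 0.45 and 0.48, and the class II median at -0.65. The fibroblast and mesothelial median, at 0.32, rests on fibroblast genes only.

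Markers of other cells that a lavage can hold were read beside the pair, since in a bulk sample a change in the share of a cell type and a change in RNA per cell cannot be told apart. Over all genes 3.72% were called in either direction, so 0 calls in lists this short say little. Dendritic cells are those for which the genes are best known. Their markers had 0 of 5 tested members past the threshold in limma and 0 with an unadjusted p under 0.05, and the summed signal over 8 genes was 2003 to 2013 in WT and 1822 to 1992 in KO. Itgax, at 978 in WT and 907 in KO, made the largest part of that sum. Of the defining members of the dendritic cell list, Flt3 read 191 in WT and 180 in KO, and Zbtb46 was at 47.6 and 36.2, below the antisense median. B cell markers had 0 of 6 past the threshold and 0 with an unadjusted p under 0.05, with sums of 1405 to 1472 and 1375 to 1427. Of the markers of lymphocytes that use RORγt, 3 of 6 had values and 0 of 2 tested passed in limma (0 with an unadjusted p under 0.05). Their sums, 1659 to 1750 in WT and 1922 to 2048 in KO, were carried by Il7r, at 1421 and 1718, which was called higher after quantile normalization (log2 difference 0.33, limma adjusted p = 0.0034), and Il17a was at 94.3 and 82.9.

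The 4 tested fibroblast markers had higher means in KO, as the pair did, while mesothelial markers differed little. The summed signal over the 8 genes of both kinds was 1784 to 1792 in WT and 2260 to 2576 in KO. Most of that rise lay in Dcn. Of 4 tested, 1 rose, where 1.06% of genes were called higher, 3 did not pass, and the median log2 difference was 0.32. The matrix proteoglycan gene Dcn rose from 589 to 1002 and was not called without WT replicate 1 (limma adjusted p = 0.29) or WT replicate 2 (0.75). More members were called in other fits: 2 of the 4 rose after quantile normalization, where the collagen gene Col1a2 joined Dcn, and 3 rose without KO replicate 1, where Col3a1 was called as well. The mesothelial markers Msln, Upk3b, Wt1 and Krt19 stayed below the filter, at 75.8 to 105 in WT and 75.1 to 112 in KO. Their log2 differences ran from -0.01 (Krt19) to 0.11 (Msln). The part of these cells in the Tmem176 signals was not tested. Of 3 neutrophil markers tested, S100a8 fell from 530 to 350.5 and 2 did not pass; S100a8 was not called without either WT array (limma adjusted p = 0.41 and 0.75). Of the 10 macrophage markers, Mertk, a receptor for apoptotic cells, fell from 229.5 to 143, and 9 did not pass. On KO replicate 1 Mertk read 134.7, below the highest antisense control of that array (150.1), so its fold is not well known. The share of all genes called lower, to set beside the neutrophil and macrophage counts, was 2.66%.

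The difference was looked for in the genes around the pair. Of the 20 annotated genes on either side, 5 had values and 3 passed the filter. Of those 3, limma called 0, where 3.72% of all genes were called in either direction, so that count says little about the region. An unadjusted limma p under 0.05 was seen for 1. That gene was Rarres2, which encodes the chemoattractant chemerin, at 141.7 and 147.9 in WT and 164.1 and 201.4 in KO (log2 difference 0.30, limma adjusted p = 0.13). Repin1 (0.16) and Aoc1 (0.04), the closest measured gene, had smaller differences. The WT signals of Rarres2 and Aoc1 were below the highest antisense control of their arrays, so their folds are not well known. The Gimap genes, GTPases of lymphocytes that form a cluster beside the pair, were below the filter at the 2 measured members, Gimap1 (73.3 in WT, 72.8 in KO) and Gimap4 (105.5 and 93.6). Pparg lies on the same chromosome with 1240 annotated genes, 437 of them protein-coding, between it and the pair.

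Head-to-head arrangement is common in the mouse genome, and the pair was set beside other such genes, a list made after the data were seen. RefSeq start windows gave 664 protein-coding pairs whose windows overlap, and in 88 of these both genes were tested. The call was made for both genes of 1 pair, Tmem176a and Tmem176b, for 1 gene in 2 pairs and for neither gene in 85, where 3.72% of all genes were called in either direction. The pair was chosen on this contrast, so its place in that count is a description. The 2 pairs with 1 call were H2-DMa (-0.98) with Brd2 (-0.25), and Tap1 (-0.70) with Psmb9 (-0.43), both of the histocompatibility region. Among the 87 other pairs, 57 had differences of the same sign, the median gap between partners was 0.08, and Pearson's r of the partners' log2 differences was 0.44, or 0.18 over 85 pairs without those 2. Partners share the 4 arrays, so this correlation across gene pairs carries no p. Gene pairs that are not head to head were not compared, so these values do not show that partners move together.

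**Figure D4:**
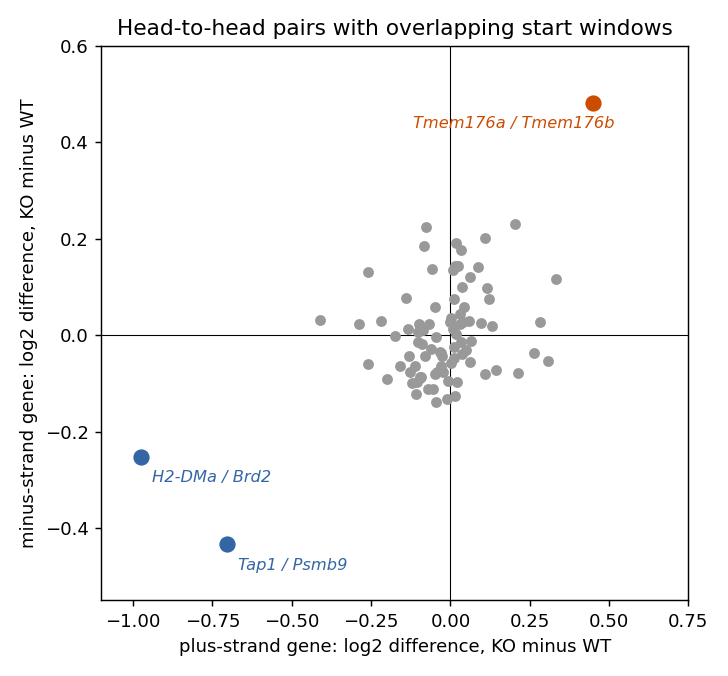
Log2 difference, KO minus WT, of the minus-strand gene (vertical axis) against the plus-strand gene (horizontal axis) for 88 head-to-head pairs with overlapping start windows; each point is a pair. Tmem176a and Tmem176b (orange) lie at 0.45 and 0.48; the blue points are the 2 pairs of the histocompatibility region with 1 called gene each.

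The RefSeq gene record of Tmem176b (GRCm38.p6, chr6:48833811-48845948), which covers all of its transcripts, contains that of Tmem176a (chr6:48841483-48845364), and the start windows place the genes on opposite strands. The genes are also related in sequence. Whether either probe set also reads the other gene's RNA was not tested, because the probe sequences were not used here.

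The genes with the most similar signal pattern were ranked by the root mean square difference of log2 values over the 4 arrays, after each gene's own mean was removed, among 5001 other genes. For Tmem176a the nearest were Cyp51, an enzyme of cholesterol synthesis, Fgfr1, C5ar1, a receptor of the complement fragment C5a, Sesn1, Tpm1 and Lta4h, which makes leukotriene B4, all at 0.03. For Tmem176b they were Cfp, the complement factor properdin (0.02), the prostacyclin synthase gene Ptgis (0.02), Tes, Cdca7l, Sqle, another enzyme of cholesterol synthesis, and Sesn1, the others being at 0.03. Cfp read 282.1 and 291.9 in WT and 376.6 and 451.3 in KO. Cyp51 read 126.6 and 120.7 in WT and 166.7 and 179.6 in KO. The WT signals of Cyp51, Fgfr1 and Sesn1 were below the highest antisense control of their arrays. Tmem176b ranked 25 for Tmem176a, and Tmem176a ranked 23 for Tmem176b, at 0.06 log2 units apart. Over 4 arrays such a ranking mostly finds genes with a like difference between genotypes, and it is a description.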

How the data were processed

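Titles gave each sample its genotype and replicate number. Values are linear intensity units, 1 per probe set for every array, as the authors deposited them; the sources used here do not say how signals were summarised or scaled. Of 12488 rows, 1780 blank and 59 control rows were set aside. Among the other 10649, the platform annotation names 1 gene for 9389, several for 341 and none for 919; 9377 of the 9389 were found in RefSeq (GRCm38.p6) by gene identifier, used for names, gene order and start windows. Since array medians on the log2(signal + 16) scale were within 0.1 of each other, no further normalization was applied. The filter required a mean log2 value past the 40th percentile (near 111 units) and passed 6389. Genotypes were compared, two-sided, with limma 3.58.1 in R 4.3.3 (eBayes with an intensity trend, Benjamini-Hochberg adjustment over all 6389, threshold 0.05). The fit estimated infinite prior degrees of freedom: the spread used is that of all probe sets at a given brightness, and small p-values rest on that. For counts by gene the brightest tested probe set stands for a gene (5002 genes). The 4 arrays limit the precision.

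The Tmem176 genes, 15 gene lists (146 entries) and the tests were chosen with earlier results of these data known; named genes are the pair, the reference genes, Pparg, called list members or the 4 with the smallest p, the 6 nearest profiles per gene and the measured neighbours; other members were named after their values were seen. Gimap, T and NK cell (0 of 1 tested called; 0 with an unadjusted p under 0.05), mast cell and basophil (0 of 2; 0) and erythroid (0 of 2; 0) lists had too few tested members to describe further. Alternatives were other normalizations, filters, pseudocounts and variance models, the replicate number as a block and each array left out. The code was tested on simulated data. Plots used matplotlib 3.10.9 (Python 3.11.15).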

Additional observations from a re-analysis of the deposited data

How the results depend on the processing

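Tmem176a and Tmem176b were higher in KO under every normalization, pseudocount and left-out array that was run. The Tmem176a log2 difference was 0.35 with a pseudocount of 64, against 0.45, since that constant is large beside its signal. For Tmem176a and Tmem176b it was 0.48 and 0.52 after quantile normalization, and 0.48 and 0.51 after median centring. Filters, variance models and the replicate block cannot move it, although a 60th percentile filter dropped Tmem176a as too dim to test. Leaving out 1 of 2 arrays cannot move the log2 difference past the replicate SD, so those fits are no check of its size. With each array left out in turn the differences ran from 0.37 to 0.54 for Tmem176a, from 0.35 to 0.61 for Tmem176b, and from -0.04 to 0.10 for the gap between them, which was -0.0006 with a pseudocount of 1. H2-Aa ran from -1.05 to -0.78 and Cd74 from -0.87 to -0.72. Over the same fits the calls over all probe sets numbered 54 to 327 and the class II genes called 0 to 7. Quantile normalization and no filter each called 8 class II genes, the first with 1 of them higher. Quantile normalization called 420 probe sets and the fit with the replicate number as a block 480, against 227. Deviations of same-numbered arrays correlated at 0.42, but with 2 arrays per genotype the numbers are not known to pair samples. In this balanced layout the block cannot move a log2 difference. Those of Tmem176a (0.45), Tmem176b (0.48), H2-Aa (-0.92) and Cd74 (-0.80), and the gap of 0.03, therefore stayed the same by arithmetic. Only the error could change, and the 7 class II calls remained. Other counts rose with the block, fibroblast and mesothelial calls from 1 to 3, interferon calls from 6 to 8, inflammasome calls from 1 to 2 and macrophage calls from 1 to 2. Each Tmem176 gene has 1 probe set, so averaging probe sets was not run, and crossed pairing was not run. The WT signal of Tmem176a, close to the antisense controls, limits how well its fold is known.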
